A study of Mus musculus with 13 samples.

Results

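Perilipins are proteins that coat lipid droplets, the organelles in which cells store fat as triglyceride. The coat regulates access to the stored fat. Adipose triglyceride lipase, encoded by Pnpla2, releases a fatty acid from triglyceride, with Abhd5 as its activator and G0s2 as its inhibitor, and hormone-sensitive lipase, encoded by Lipe, acts next on the diglyceride that is left. Dgat1 and Dgat2 encode the acyltransferases that complete triglyceride synthesis. Proximal tubule cells of the kidney draw most of their energy from fatty acid oxidation and can hold fatty acids in droplets. The 10 genes described here are the perilipins Plin2, Plin3, Plin4 and Plin5, the lipolysis genes Pnpla2, Abhd5, G0s2 and Lipe, and Dgat1 and Dgat2. They were selected by symbol from the 35013 symbols of the deposited table, and all 10 were among the 16468 genes with enough counts to be tested. Plin4 was itself chosen by a readout of these libraries, since it had been named for its decrease in both models, so its differences from WT are described without a test.

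The data came from 13 libraries of thio-labeled kidney RNA from female C57Bl6 mice. Every mouse carried Megalin3'Cre-Ert, a tamoxifen-inducible Cre under the promoter of megalin (Lrp2), the endocytic receptor of the proximal tubule, and 1 floxed Uprt allele, whose enzyme lets Cre-expressing cells build 4-thiouracil into new RNA. The 4 Spns1 KO mice were Spns1 flox/flox. The 5 WT mice were littermates with Spns1 flox/+, and the 4 FeO mice had the same genotype and received 12 mg of elemental iron, as iron sucrose, on each of 3 days and were euthanized 1 week later. The labels call the genotype of WT and FeO mice Spns1 WT and the FeO model dietary, although the iron was injected. All mice received tamoxifen, and ages were not given in the sources used here. No source used here says whether any library pooled mice, so the spread between libraries may be partly technical.

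Library totals ranged from 23068023 to 71296474 estimated counts. To be called, a gene needed an edgeR adjusted p under 0.05 and a log2 fold change past 0.5, up or down. Spns1 itself, whose exon 3 is floxed although the count covers all exons, lay at 36.6 to 59.0 CPM (counts relative to library size) in the libraries labelled Spns1 KO, 39.2 to 62.9 in WT and 39.0 to 58.7 in FeO, so its level did not separate the groups. All 12 proximal tubule markers were present in every library, but so were markers of other cells, with 6 loop and distal markers at 1935 to 5401 CPM in sum and 6 endothelial markers at 164 to 291. Summed, the proximal tubule markers reached 9240 to 10978 CPM in Spns1 KO, 4413 to 6672 in WT and 2665 to 5900 in FeO. Against WT, 8 of 12 were called higher in Spns1 KO (66.7%, beside 14% of all genes). In FeO, 2 were called higher and 2 lower (16.7% each, beside 22.4% and 19.7% of all genes). The 12 adipocyte markers summed to 119 to 345 CPM in Spns1 KO, 125 to 370 in WT and 207 to 499 in FeO, and none was at 0 in any library. In bulk RNA, fewer cells of a type and less RNA per cell cannot be told apart. Over about 12204 genes with enough counts to compare, the library labelled Spns1 KO 4 was closer to WT 1 and WT 2 than to any other Spns1 KO library. The measure, squared difference over counting noise, grows with library depth, so only large gaps are read. The median squared difference of Spns1 KO 4 was 38.9 and 41.4 times counting noise from WT 2 and WT 1. From the other Spns1 KO libraries it was 78.4, 105 and 119 times, and these lay 13.9 to 19.6 times apart. Spns1 KO 4 also had the highest Spns1 level of its group, at 59.0 CPM. Its sum of proximal tubule markers, 9240 CPM, however lay above all WT libraries. Its label and its recombination of Spns1 could not be checked from these counts. Values without it are therefore given for Plin2, Plin3, Plin4, Plin5, Abhd5, Lipe and Dgat2, and for some of the other lipid genes. FeO 1 had the lowest sum of proximal tubule markers. WT 1 and WT 2 were far closer to each other than any other pair, at 3.56 times counting noise against 13.9 for the next pair. They still differed beyond counting noise and were kept as separate samples.

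Plin4, Plin5 and Plin3 lie on the minus strand of chromosome 17 (GRCm38), Plin4 from 56100591 to 56109803, Plin5 from 56111601 to 56117596 and Plin3 from 56277476 to 56292873. Plin4 and Plin5 are neighbours, 1797 bases apart, and Plin3 begins 159879 bases beyond Plin5. Plin2 lies on chromosome 4 from 86648386 to 86670060, also on the minus strand. The sequences just upstream of the 4 perilipin genes are shown because Plin4 and its neighbour Plin5 had unlike values in FeO, and because perilipins are known targets of peroxisome proliferator-activated receptors (PPARs). They are from RefSeq on GRCm38.p6, on the minus strand, trimmed to bases outside annotated exons: chr17:56109804-56110032 for Plin4, chr17:56117597-56117798 for Plin5, chr17:56290512-56290761 for Plin3 (before the RefSeq start, which lies inside the span given above) and chr4:86670061-86670309 for Plin2. Capitals mark AGGTCA, the half-site of PPARs and other nuclear receptors, or its reverse complement TGACCT.
Plin4: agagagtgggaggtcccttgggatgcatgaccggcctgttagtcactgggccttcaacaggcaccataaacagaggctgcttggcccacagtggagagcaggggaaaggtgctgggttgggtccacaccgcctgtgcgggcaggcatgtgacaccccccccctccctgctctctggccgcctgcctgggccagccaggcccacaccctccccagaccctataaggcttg
Plin5: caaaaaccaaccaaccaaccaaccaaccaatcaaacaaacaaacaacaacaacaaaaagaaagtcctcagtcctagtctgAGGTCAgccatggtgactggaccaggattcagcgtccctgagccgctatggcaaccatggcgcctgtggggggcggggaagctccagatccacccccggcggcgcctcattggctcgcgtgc
Plin3: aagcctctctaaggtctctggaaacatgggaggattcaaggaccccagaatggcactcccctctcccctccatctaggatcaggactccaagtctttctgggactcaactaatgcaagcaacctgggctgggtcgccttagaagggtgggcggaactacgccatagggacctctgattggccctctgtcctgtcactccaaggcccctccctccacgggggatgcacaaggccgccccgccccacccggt
Plin2: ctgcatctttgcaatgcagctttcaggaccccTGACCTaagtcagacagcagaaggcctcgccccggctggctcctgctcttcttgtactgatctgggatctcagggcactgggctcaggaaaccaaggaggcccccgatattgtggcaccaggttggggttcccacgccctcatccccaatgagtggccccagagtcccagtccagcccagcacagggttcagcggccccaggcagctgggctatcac

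AGGTCA was found on either strand in the 250 bases upstream of Plin2 (218 bases before the start), Plin5 (170 bases) and Abhd5 (69 bases), and in 14% of all 32851 promoter windows of that length. The windows of Plin4, Plin3, Pnpla2, G0s2 and Lipe did not hold these letters. GTAAACA, a FOXO site found in 3.17% of windows, occurred in 1 window of Lipe (119 bases before the start), and AGAACA, a glucocorticoid half-site found in 16.1%, in none of the members' windows. Of the 10 members, 8 had a promoter entry, and Dgat1 and Dgat2 did not. The motifs were chosen after the members' values were seen.

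Plin4 was the member with the largest difference from WT in both models. Its level was 294, 365, 307, 227 and 508 CPM in WT 1 to 5. It was 87.2, 70.7, 98.7 and 224 CPM in Spns1 KO 1 to 4 and 125, 82.7, 37.8 and 92.6 CPM in FeO 1 to 4. All 8 libraries of the 2 models thus lay below all WT libraries, with Spns1 KO 4 just under the lowest WT library. Mean levels were 84.6 ± 36.1 CPM for FeO, 120.2 ± 70.3 for Spns1 KO (SD, n = 4 each) and 340.2 ± 106 for WT (SD, n = 5). The fitted level was 35.3% of WT in Spns1 KO and 24.9% in FeO, or log2 fold changes of -1.50 (95% interval -2.29 to -0.71) and -2.01 (-2.82 to -1.20), both given as a description. Without Spns1 KO 4 the first value was -1.99. Plin4 was thus lower beside proximal tubule markers that were mostly higher in Spns1 KO but mostly not called in FeO. Of the 12 adipocyte markers, 4 were called higher in FeO (33.3%, beside 22.4% of all genes). Plin4 shared no 31-base stretch with other transcripts, but Hdgfl2 overlaps it on the opposite strand, and whether counting used strand is not given in the sources used here.

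**Figure D1:**
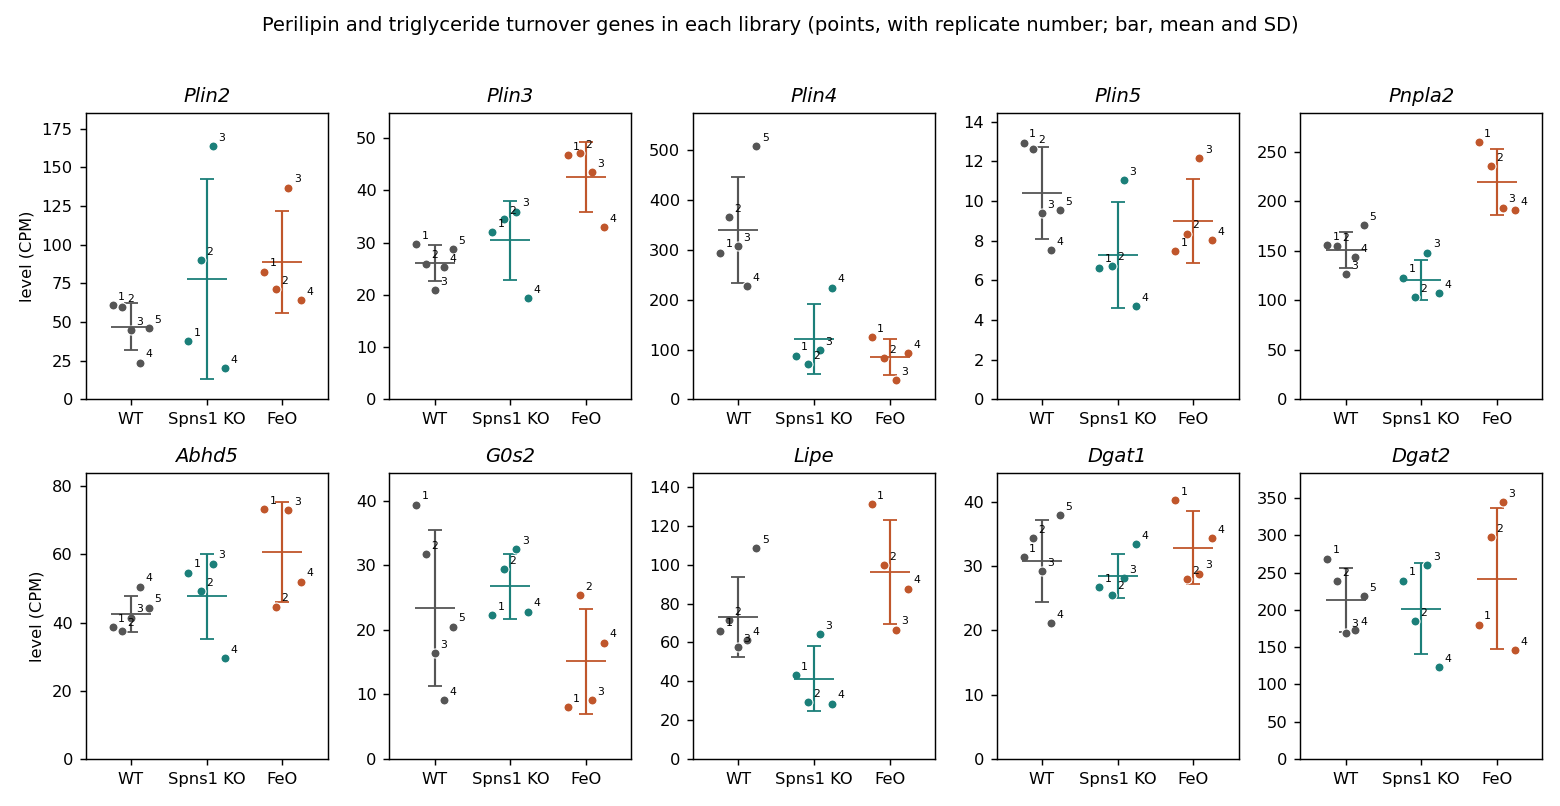
Level in CPM (y axis, from 0, a scale of its own in each panel) of the 10 genes in WT, Spns1 KO and FeO. Each point is 1 library with its replicate number, and bars give the mean and SD; Plin4 lies at 227 to 508 CPM in WT and at 37.8 to 224 CPM in the other libraries, whereas Dgat1 and Dgat2 overlap in all groups.

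Plin2, the perilipin found on droplets of most cell types, had the opposite sign in the means, with a wide spread. It lay at 61.0, 59.6, 44.6, 23.6 and 45.9 CPM in WT, at 37.7, 89.8, 164 and 19.96 CPM in Spns1 KO and at 82.5, 71.3, 137 and 64.1 CPM in FeO. All FeO libraries were above all WT libraries, while the Spns1 KO libraries ran from below the lowest WT library to above the highest FeO library. The log2 fold change was 0.92 in FeO (95% interval -0.05 to 1.89, edgeR adjusted p = 0.111) and 0.73 in Spns1 KO (-0.24 to 1.70, adjusted p = 0.257), and neither was called. Without Spns1 KO 4 both were called, at 0.92 (adjusted p = 0.048) and 1.05 (adjusted p = 0.0465), whereas without Spns1 KO 3 the Spns1 KO value was 0.07 (adjusted p = 0.929). The FeO value was also called with only FeO and WT in the edgeR fit (0.92, adjusted p = 0.0174). It was 0.63 without FeO 3 (adjusted p = 0.314). The sum of 6 macrophage markers was also higher in FeO, at 75.1 to 97.4 CPM against 47.5 to 57.4 in WT and 66.4 to 80.7 in Spns1 KO, and its part in the Plin2 level was not tested.

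Plin3 (TIP47), which moves between cytosol and nascent droplets and is also a carrier for mannose 6-phosphate receptors, rose in FeO. Its level was 29.7, 25.9, 20.9, 25.3 and 28.7 CPM in WT, 32.0, 34.5, 35.9 and 19.3 CPM in Spns1 KO and 46.7, 47.2, 43.5 and 32.9 CPM in FeO. All FeO libraries exceeded all WT libraries, and Spns1 KO overlapped both. The log2 fold change in FeO was 0.71 ± 0.18 (SE, edgeR adjusted p = 0.00663), and it was called in all 23 alternative fits. In Spns1 KO it was 0.22 ± 0.18 (adjusted p = 0.395), and 0.39 without Spns1 KO 4 (adjusted p = 0.0602).

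Plin5, the perilipin of oxidative tissues that tethers droplets to mitochondria, was the least abundant of the members per length. It lay at 7.52 to 12.9 CPM in WT (median 9.54), 4.69 to 11.1 in Spns1 KO and 7.48 to 12.1 in FeO, and all groups overlapped. Against WT the log2 fold change was -0.52 for Spns1 KO (95% interval -1.05 to 0.01, edgeR adjusted p = 0.142) and -0.21 for FeO (-0.74 to 0.32, adjusted p = 0.50). The Spns1 KO value was called without Spns1 KO 3 (-0.79, adjusted p = 0.0457) and with a length and GC trend removed (-0.80, adjusted p = 0.0363). Without Spns1 KO 4 it was nearer to WT, at -0.36 (adjusted p = 0.265). The neighbours Plin4 and Plin5 thus stood at -2.01 and -0.21 in FeO, a difference between genes that was not tested.

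Per kilobase of transcript, the make-up of the perilipin message differed between WT and FeO. With Plin1, the adipocyte perilipin, included, Plin4 made up 49.0% to 62.7% of the summed perilipin level in WT, 13.4% to 65.6% in Spns1 KO and 5.88% to 21.6% in FeO. Plin2 made up 17.3% to 30.97% in WT, 17.8% to 67.9% in Spns1 KO and 43.3% to 64.8% in FeO. Plin4 was the largest part in all WT libraries and in Spns1 KO 4, and Plin2 was the largest in the other 7 libraries. For WT the summed level was 105 ± 26.9 CPM per kilobase (SD, n = 5), beside 78.9 ± 33.5 for Spns1 KO and 91.6 ± 17.5 for FeO (SD, n = 4 each), so the totals of the groups lay within 1 SD of each other. These shares follow in part from the Plin4 levels and carry no test.

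**Figure D2:**
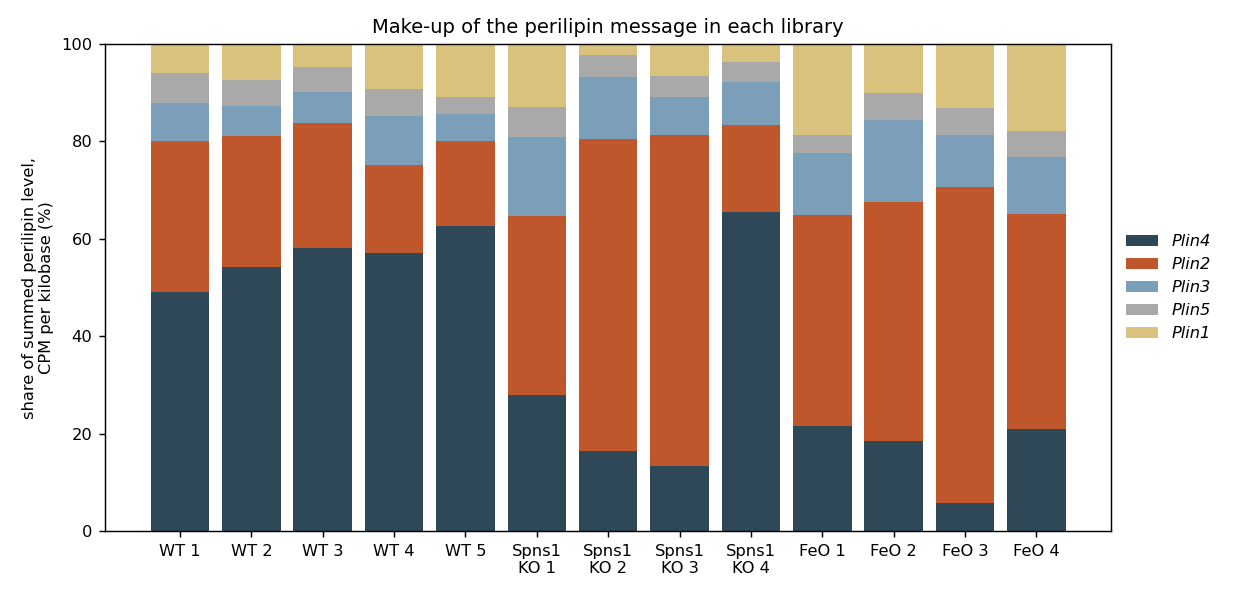
Share of each perilipin gene in the summed level of Plin1 to Plin5, in CPM per kilobase (y axis, %), with 1 bar for each library. Plin4 takes 49.0% to 62.7% of each WT bar and 5.88% to 21.6% of each FeO bar, and Spns1 KO 4, at 65.6%, looks like the WT bars.

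Among the lipolysis genes, Pnpla2 rose in FeO. It lay at 156, 154, 126, 144 and 176 CPM in WT, at 123, 103, 148 and 107 CPM in Spns1 KO and at 260, 236, 194 and 191 CPM in FeO. All FeO libraries were above all WT and all Spns1 KO libraries. The log2 fold change was 0.54 ± 0.16 in FeO against WT (SE, edgeR adjusted p = 0.013) and 0.87 ± 0.17 in FeO against Spns1 KO (adjusted p = 0.00606). In Spns1 KO against WT it was -0.33 (95% interval -0.67 to 0.01, adjusted p = 0.146). The FeO call against WT was lost in 5 of 23 alternatives, in each because the fold change fell under the limit of 0.5 on the log2 scale. These were the fits without WT 3 (0.50, adjusted p = 0.0341), without FeO 1 (0.47, adjusted p = 0.0365), without Spns1 KO 4 and FeO 1 (0.45), after removal of a length and GC trend (0.43) and with library totals in place of TMM scaling (0.49). The call against Spns1 KO held in all 23 alternatives.

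Abhd5, the activator of that lipase (also called CGI-58), was called higher in FeO, close to both limits. It lay at 38.6, 37.4, 41.4, 50.5 and 44.3 CPM in WT, at 54.6, 49.2, 57.2 and 29.6 CPM in Spns1 KO and at 73.3, 44.6, 73.0 and 51.9 CPM in FeO. FeO 2 lay inside the WT range, and FeO 1 and FeO 3 were the highest libraries. The log2 fold change was 0.52 ± 0.20 in FeO (SE, edgeR adjusted p = 0.0451) and 0.17 ± 0.20 in Spns1 KO (adjusted p = 0.563). The FeO call was lost in 13 of 23 alternatives, 8 of them single left-out libraries (Spns1 KO 1 and 2, WT 1, 2, 3 and 5, and FeO 1 and 3), with values of 0.42 to 0.55 and adjusted p up to 0.135. In Spns1 KO the value was 0.34 without Spns1 KO 4 (adjusted p = 0.135). Of its 31-base stretches 16.6% also occur in other transcripts, mostly the antisense gene A730085K08Rik, whose reads cannot be told apart without strand.

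G0s2, the inhibitor, varied most within WT, at 39.5, 31.7, 16.3, 9.11 and 20.5 CPM. It lay at 22.3, 29.4, 32.6 and 22.9 CPM in Spns1 KO and at 8.0, 25.4, 9.07 and 18.0 CPM in FeO, inside the WT range but for FeO 1 and FeO 3, which were just below it. The log2 fold change was -0.63 in FeO (95% interval -1.46 to 0.19, edgeR adjusted p = 0.192), 0.19 in Spns1 KO (-0.62 to 1.00, adjusted p = 0.739) and -0.82 in FeO against Spns1 KO (-1.69 to 0.04, adjusted p = 0.171). After removal of a length and GC trend, the FeO value was -1.11 and was called lower (adjusted p = 0.0211). Per length, the level of G0s2 relative to Pnpla2 was 0.191 to 0.764 in WT, 0.549 to 0.859 in Spns1 KO and 0.0931 to 0.325 in FeO. Each FeO library thus had less inhibitor message per lipase message than each Spns1 KO library, and FeO overlapped WT in this ratio. Lamb3 overlaps G0s2 on the opposite strand.

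Lipe differed most between the 2 models. It lay at 65.7, 71.3, 57.4, 61.1 and 108 CPM in WT, at 43.2, 29.2, 64.2 and 28.5 CPM in Spns1 KO and at 131, 99.7, 66.6 and 87.7 CPM in FeO. All FeO libraries were above all Spns1 KO libraries, Spns1 KO 3 lay inside the WT range, and WT 5 was far above the other WT libraries. The log2 fold change was 1.22 ± 0.28 in FeO against Spns1 KO (SE, edgeR adjusted p = 0.0119), -0.82 ± 0.27 in Spns1 KO against WT (adjusted p = 0.0376) and 0.40 ± 0.26 in FeO against WT (adjusted p = 0.217). The Spns1 KO call against WT was lost in 11 of 23 alternatives, 6 of them single left-out libraries (Spns1 KO 1, 2 and 4 and WT 1, 2 and 5), with values of -0.85 to -0.62 and adjusted p up to 0.124. Without Spns1 KO 4 it was -0.68 (adjusted p = 0.0705). The difference between the models was called unless Spns1 KO 4 and FeO 1 were left out together (0.89, adjusted p = 0.0787). Of the 31-base stretches of Lipe, 12.9% also occur in other transcripts, nearly all in the antisense gene 4732471J01Rik.

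Lipe and Plin1 are also genes of fat cells, and adipocyte markers are given beside them. Of the 12 markers, 4 were called higher in FeO against WT, or 33.3% beside 22.4% of all genes, and 4 in FeO against Spns1 KO, beside 8.1%, while none was called in Spns1 KO against WT (edgeR, with 1 higher and 1 lower at an unadjusted p under 0.05). Plin1, the perilipin of fat cells, lay at 12.2 to 43.4 CPM in WT (median 18.1), 4.84 to 23.4 in Spns1 KO and 21.9 to 52.9 in FeO. It was called higher in FeO than in Spns1 KO, by 1.51 on the log2 scale (edgeR adjusted p = 0.0444), and lost that call in 11 of 23 alternatives. Of these, 8 left out a single library (Spns1 KO 1, 2 and 4, WT 1 and 2, and FeO 1, 3 and 4), with values of 1.23 to 1.76 and adjusted p up to 0.117. The adipokine gene Adipoq had means of 8.76 ± 5.04 CPM in FeO, 4.14 ± 2.75 in Spns1 KO (SD, n = 4 each) and 2.41 ± 0.96 in WT (SD, n = 5), and rose in FeO by 1.86 on the log2 scale (edgeR adjusted p = 0.00661). Cfd (adipsin) rose there by 1.63 (adjusted p = 0.0177), with 0.95 without FeO 4 (adjusted p = 0.104). Over the 5 WT libraries Lipe had the same order as the marker sum, with WT 5 highest in both (370 CPM in sum). Spns1 KO 3 and Spns1 KO 1 were likewise the highest of their group in both. Spns1 KO 3 had 64.2 CPM of Lipe at a sum of 345 CPM. In FeO the library with the highest sum, FeO 4, was the third in Lipe. The part of adipocyte RNA in the Lipe, Pnpla2, Plin1 and Plin4 values was not tested.

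**Figure D3:**
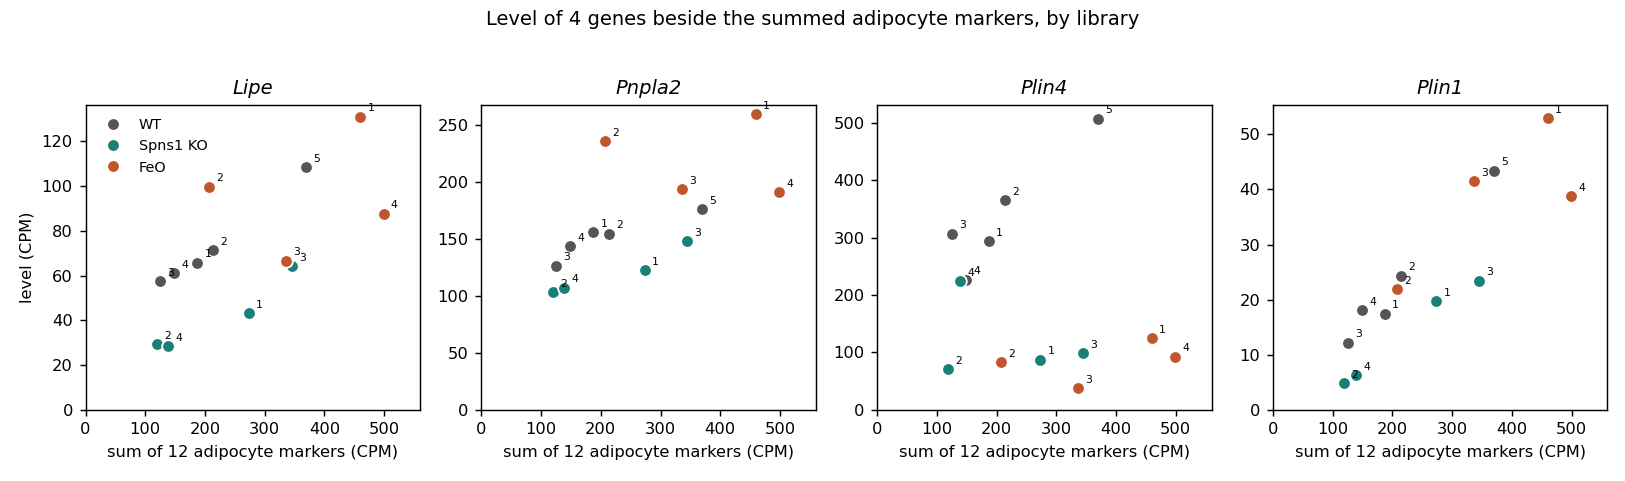
Level in CPM (y axis) of Lipe, Pnpla2, Plin4 and Plin1 against the summed CPM of 12 adipocyte markers, Plin1 among them (x axis), with 1 point for each library, coloured by group and numbered by replicate. Within WT, Lipe goes up from 57.4 to 108 CPM with the sum, whereas Plin4 stays at or below 125 CPM in all FeO libraries, including FeO 1 and FeO 4 with sums of 460.0 and 499 CPM.

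The acyltransferase genes had the smallest differences from WT among the members in Spns1 KO, and with Plin5 in FeO. Dgat2, the member with the highest level per length, lay at 169 to 269 CPM in WT (median 219), at 123 to 260 in Spns1 KO and at 146 to 344 in FeO. Dgat1 lay at 21.1 to 37.9 CPM in WT (median 31.4), at 25.6 to 33.5 in Spns1 KO and at 28.0 to 40.3 in FeO. Both genes overlapped between all groups. The 95% intervals of the log2 fold changes against WT ran from -0.48 to 0.26 in Spns1 KO and -0.28 to 0.46 in FeO for Dgat1 (edgeR adjusted p = 0.66 and 0.677). For Dgat2 they ran from -0.65 to 0.49 and -0.39 to 0.75 (adjusted p = 0.847 and 0.594). Changes within these intervals are not excluded. Without Spns1 KO 4 the Dgat2 value in Spns1 KO was 0.10, against -0.08 with it.

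In WT, levels per kilobase of transcript ranked Dgat2 at 94.4 CPM per kilobase, Plin4 at 59.1 and Pnpla2 at 57.6 well above G0s2 at 26.9, Plin2 at 24.9 and Lipe at 19.6. Dgat1 at 16.3, Abhd5 at 13.4, Plin3 at 7.16 and Plin5 at 5.24 followed. In FeO the order was Dgat2 (107), Pnpla2 (83.8), Plin2 (47.0), Lipe (25.9), Abhd5 (19.2), Dgat1 (17.4), G0s2 (17.4), Plin4 (14.7), Plin3 (11.7) and Plin5 (4.53). Plin4 thus moved from next to the top of the list in WT to among the lowest in FeO, and neighbours such as Plin4 and Pnpla2 in WT, or Dgat1 and G0s2 in FeO, did not differ beyond the spread between libraries.

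In FeO against WT, 3 of the 9 members other than Plin4 were called higher (Plin3, Pnpla2 and Abhd5), beside 22.4% of all genes tested, and none lower, beside 19.7%. Leaving out WT 3 or FeO 1 brought the count to 1. In Spns1 KO against WT, 1 of 9 was called lower (Lipe), beside 7.55% of all genes, and none higher, beside 14%. Neither DESeq2 nor limma-voom called a member in the directions with none, and edgeR had none there at an unadjusted p under 0.05. Among the 9, the FeO libraries did not overlap WT for 3 (Plin2, Plin3 and Pnpla2), beside 33.4% of all genes, and the Spns1 KO libraries overlapped WT for all 9, beside 22.4% of all genes that did not overlap. These shares are near those of all genes, and they are no result about the group as a whole. Of the median log2 fold changes over the 9, that in FeO was 0.40 and that in Spns1 KO -0.08, beside -0.01 and -0.05 over all genes.

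Set directly against Spns1 KO in the same fit, FeO was higher for 2 of the 9 (Pnpla2 and Lipe), beside 8.1% of all genes called higher, and lower for none, beside 6.76% (edgeR; none at an unadjusted p under 0.05 and none by DESeq2 or limma-voom). The same 2 were those without overlap between the models, beside 17.4% of all genes. Plin4 did not separate the models, at -0.51 (95% interval -1.31 to 0.30, edgeR adjusted p = 0.369), and without Spns1 KO 4 the value was -0.02. Plin3 was at 0.48 (0.07 to 0.90, adjusted p = 0.099). Of the 4 perilipin members none was called between Spns1 KO and FeO, and Plin1, the perilipin outside the group, was called as given above.

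**Figure D4:**
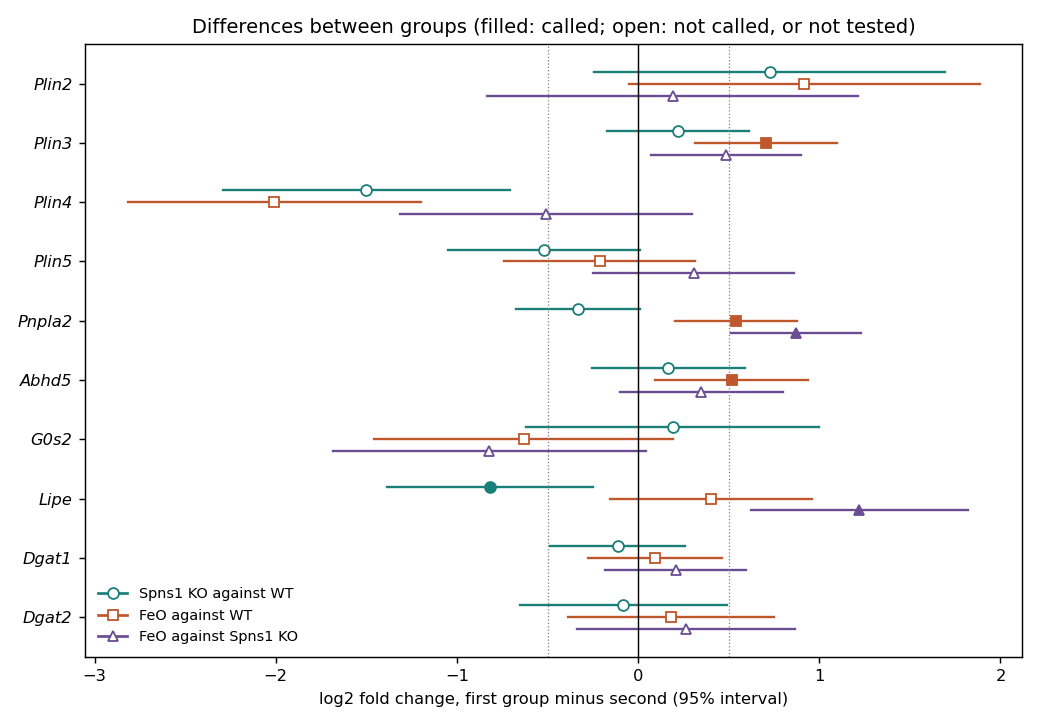
Log2 fold change (x axis, first group minus second, with 95% intervals) of the 10 genes in 3 comparisons. Filled symbols are called and open ones not called or, for Plin4 against WT, not tested. Dotted lines mark 0.5 either way. The Plin4 symbols against WT lie at -1.50 in Spns1 KO and -2.01 in FeO. Plin4 was named for its decrease, so its intervals against WT are no test of it. The FeO to Spns1 KO symbols of Pnpla2 and Lipe lie at 0.87 and 1.22.

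The 62 other lipid genes, listed with earlier results of these data known, all passed the filter on low counts. Pdk4, named before for its decrease, is left out of the counts, which cover the other 61. In Spns1 KO, 13 were called higher and 4 lower (10 and 6 with library totals in place of TMM scaling, where 45.5% in place of 65.0% of all calls were higher). Leaving out Spns1 KO 1, 2 or 3 or WT 3 brought the 13 to 6 or 7, and leaving out Spns1 KO 4 raised it to 22. For FeO the counts were 21 higher and 6 lower, and 14 higher without FeO 3. Median log2 fold changes were 0.25 and 0.61, beside -0.05 and -0.01 over all genes. As shares these are 21.3% and 6.56% for Spns1 KO and 34.4% and 9.84% in the FeO model, to be read beside the percentages of all genes above.

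Among 11 genes of glycerolipid synthesis upstream of Dgat1 and Dgat2, Spns1 KO had 1 called higher and 2 lower, and FeO 3 higher and 2 lower. These are 9.09% and 18.2% in Spns1 KO, beside 14% and 7.55% of all genes. In FeO they are 27.3% and 18.2%, beside 22.4% and 19.7%. Lpin1, a phosphatidate phosphatase and transcriptional coactivator, fell in both, to 172 ± 76.1 CPM for Spns1 KO and 155 ± 79.1 for FeO (SD, n = 4 each) against 400.3 ± 72.5 in WT (SD, n = 5), with log2 fold changes of -1.22 and -1.37 (edgeR adjusted p = 0.0122 and 0.00323). Agpat1, an acyltransferase that makes phosphatidate, rose by 0.66 and 0.89 (adjusted p = 0.028 and 0.00282). Its Spns1 KO call was lost in 7 of 23 alternatives, 5 of them single left-out libraries (Spns1 KO 1, 2 and 3 and WT 3 and 5, at 0.56 to 0.65), and the lowest value was 0.40 with the length and GC trend removed (adjusted p = 0.196). Agpat2, its paralog of fat cells, rose in FeO, at 1.39 (adjusted p = 0.003) beside -0.01 in Spns1 KO (adjusted p = 0.984), and the difference between the models was 1.40 (adjusted p = 0.0144). Mogat1, a monoacylglycerol acyltransferase, rose in FeO by 1.24 (adjusted p = 0.00839), with -0.42 in Spns1 KO (adjusted p = 0.384). The supply side of triglyceride synthesis thus held calls in both directions, beside Dgat1 and Dgat2, which were not called. Few genes were called, and the FeO shares are near those of all genes, so this is no result about the list.

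Of 8 other lipases and their regulators, Spns1 KO had 1 that rose and FeO 3, beside 14% and 22.4% of all genes called higher. None fell in either model, beside 7.55% and 19.7% of all genes called lower. The share that rose in Spns1 KO is near that of all genes. With few genes called, this is no result about the list. Lipa, lysosomal acid lipase, rose in Spns1 KO by 1.07 (edgeR adjusted p = 0.0425) with levels of 104 to 500 CPM beside 93.4 to 213 in WT, and lost its call in 11 of 23 alternatives, 7 of them single left-out libraries (Spns1 KO 1, 2 and 3 and WT 1, 2, 3 and 5, at 0.71 to 1.18). In FeO it was at 0.16 (adjusted p = 0.728). FeO against Spns1 KO stood at -0.91 for Lipa (adjusted p = 0.114), and without Spns1 KO 4 it was called, at -1.20 (adjusted p = 0.0289). Ces1f, a carboxylesterase of lipid droplets, rose in FeO by 0.91 (adjusted p = 0.0166; 0.58 and adjusted p = 0.0897 without FeO 3) and was at 0.45 in Spns1 KO (adjusted p = 0.254).

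Of 15 other droplet proteins, 4 rose in Spns1 KO and 7 in FeO. These are 26.7% and 46.7%, beside 14% and 22.4% of all genes called higher. Cideb, a droplet fusion and lipid transfer protein, rose to 41.2 ± 8.24 CPM for Spns1 KO and 41.2 ± 22.5 for FeO (SD, n = 4 each) against 18.3 ± 3.05 in WT (SD, n = 5), a log2 fold change of 1.17 in each (edgeR adjusted p = 0.00695 and 0.00324). Hsd17b11, a droplet-associated dehydrogenase, rose by 0.76 and 1.03 (adjusted p = 0.0323 and 0.0035), and Fitm1, which partitions triglyceride into droplets, by 1.24 and 1.35 (adjusted p = 0.023 and 0.00814). The Spns1 KO call of Hsd17b11 was lost in 11 of 23 alternatives, 7 of them single left-out libraries (Spns1 KO 1, 2 and 3 and WT 1, 2, 3 and 5, at 0.59 to 0.80, adjusted p up to 0.129). That of Fitm1 was lost in 5, among them the fits without Spns1 KO 2, Spns1 KO 3 or WT 3 (0.97 at the lowest, adjusted p up to 0.0978), and with correction for length and GC it stood at 0.60, where the FeO call was lost as well (0.88, adjusted p = 0.0628). Cidec, an adipocyte marker as well, stood at -1.09 for Spns1 KO and 0.98 for FeO (adjusted p = 0.181 and 0.16), and the models differed by 2.08 (adjusted p = 0.0349), a call lost in 6 of 23 alternatives, among them the fits without Spns1 KO 1, 2 or 4 or FeO 1 (1.66 to 2.25, adjusted p up to 0.112). Levels of Cideb and Plin4 thus went in opposite directions in both models.

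Among 12 genes of fatty acid uptake and activation, Spns1 KO had 4 that rose, and FeO 4 that rose and 1 that fell. The share that rose in Spns1 KO is 33.3%, beside 14% of all genes. In FeO the shares are 33.3% and 8.33%, beside 22.4% and 19.7%. Fabp3, the fatty acid binding protein of heart muscle, rose to 56.4 ± 18.5 CPM for Spns1 KO and 45.8 ± 17.4 for FeO (SD, n = 4 each) against 19.7 ± 1.90 in WT (SD, n = 5), by 1.52 and 1.22 on the log2 scale (edgeR adjusted p = 0.000784 and 0.00129). Cd36, a fatty acid translocase also found on endothelium and macrophages, rose by 0.79 and 1.04 (adjusted p = 0.0316 and 0.00395). Its Spns1 KO call was lost in 10 of 23 alternatives, 7 of them single left-out libraries (Spns1 KO 1, 2 and 3 and WT 1, 2, 3 and 4, at 0.70 to 0.82, adjusted p up to 0.0989). Fabp1, the liver form, rose 10.9-fold in Spns1 KO, from 0.62 ± 0.28 to 6.82 ± 3.89 CPM (adjusted p = 0.000714), and was at 1.03 on the log2 scale in FeO (adjusted p = 0.128). Acsl5, an acyl-CoA synthetase, rose in FeO by 1.00 (adjusted p = 0.00175) and was at 0.11 in Spns1 KO (adjusted p = 0.738).

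The last list holds 15 genes other than Pdk4 that respond to PPAR alpha, the nuclear receptor for fatty acids, or encode it and its coactivator. Spns1 KO had 3 that rose and 2 that fell (20% and 13.3%, beside 14% and 7.55% of all genes). FeO had 4 that rose and 3 that fell (26.7% and 20%, beside 22.4% and 19.7%). In FeO, Ppara itself fell by 2.68 on the log2 scale (edgeR adjusted p = 0.000644), to 40.5 ± 32.1 CPM (SD, n = 4) against 259 ± 74.5 in WT (SD, n = 5), and was at -0.62 in Spns1 KO (adjusted p = 0.289). Ppargc1a, which encodes a coactivator of oxidative metabolism, fell by 0.87 in Spns1 KO and by 0.93 in FeO (adjusted p = 0.00615 and 0.00195). Acadm, the medium-chain acyl-CoA dehydrogenase, rose in both, by 1.23 and 0.67 (adjusted p = 0.00135 and 0.0189), with the FeO call lost in 4 of 23 alternatives, among them the fits without FeO 3 (0.59, adjusted p = 0.0564) or FeO 4 (0.55, adjusted p = 0.0541). Pdk4, a kinase that limits glucose oxidation, had like Plin4 been named for its decrease, and is described only: the mean was 754 CPM in WT but 267 in FeO and 241 in Spns1 KO. The lower levels of Plin4 and the values of Plin2 thus stood beside PPAR alpha responsive genes that moved both ways. In FeO the shares of that list were near those of all genes.

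**Figure D5:**
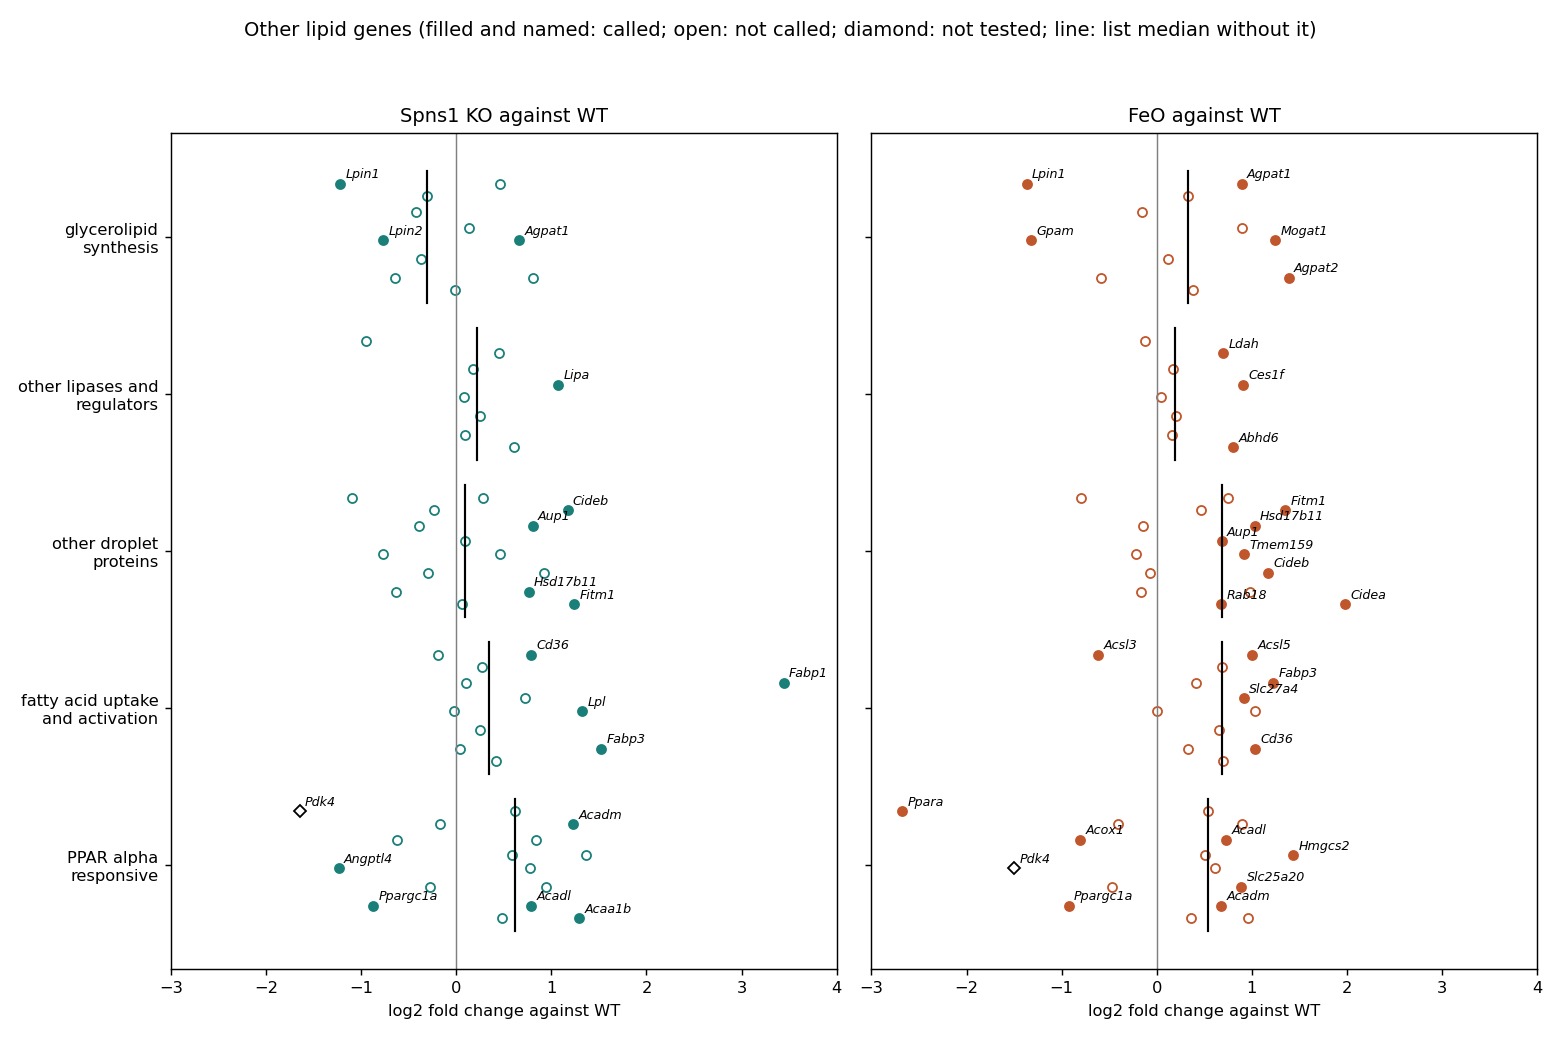
Log2 fold change against WT (x axis) of the 62 other lipid genes in Spns1 KO (left) and FeO (right), by list (y axis; height within a list has no meaning). Filled points, with names, are called, open points are not, the diamond is Pdk4, not tested, and the line is the list's median without it; 13 filled points lie right of 0 in Spns1 KO and 21 in FeO.

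The genes whose log2 CPM over the 13 libraries was most like that of Plin4, of 12207 with a mean of at least 100 counts, were Spsb1 (r = 0.957), Sesn1 (0.945), Ripor2 (0.942), Cyth3 (0.941) and Trmt9b (0.937). These values of Pearson's r describe 13 libraries that share group and depth, and carry no test. Sesn1, a sestrin, lay at 44.4 to 79.2 CPM in WT, 19.9 to 55.4 in Spns1 KO and 18.4 to 29.3 in FeO. Cyth3, a guanine nucleotide exchange factor for ARF proteins, lay at 45.0 to 50.9 CPM in WT, 25.9 to 41.1 in Spns1 KO and 19.8 to 28.9 in FeO. In all of these genes, as in Plin4, Spns1 KO 4 was the highest Spns1 KO library. They were picked for their likeness to Plin4, so this adds nothing about Spns1 KO 4.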

How the data were processed

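RNA was extracted by the authors from kidneys of mice given 4-thiouracil, biotinylated, captured on streptavidin, selected for poly-A and sequenced as TruSeq paired-end libraries. The authors deposited 1 table of estimated counts for each gene symbol and library, with no normalization; the values were whole numbers. The submitters' processing notes name bcl2fastq 2.19, kallisto 0.44.0, DESeq2 and GRCm38, whereas the paper's methods describe alignment with STAR and counting with HTSeq, so it is unsure which of them made the table. Samples were grouped by their labels (4 Spns1 KO, 5 WT, 4 FeO), and totals of 23068023 to 71296474 counts left at least 199 counts for each member in each library.

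Counts were scaled by TMM factors, filtered with filterByExpr and tested with edgeR 4.0.16 (glmQLFit, glmQLFTest; R 4.3.3) in 1 fit of all 13 libraries, with Benjamini-Hochberg adjustment over 16468 genes. Plin4 and Pdk4 had been named earlier for their decrease, so they were described against WT without a test and left out of counts. Calls needed adjusted p under 0.05 and a log2 fold change beyond 0.5. Levels are CPM on TMM-scaled totals. Per-length levels used the longest coding transcript in GENCODE on GRCm38, and gene coordinates the whole gene span given there. The scripts were tested on simulated data. Alternatives were other scalings, filters, DESeq2 1.42.0 and limma-voom 3.58.1, fits of 2 groups, a replicate block, removal of a length and GC trend, and each library left out. The members, lists, naming rule and motifs were chosen with earlier results of these data known. Named were all members, up to 4 genes of each other lipid list that were called in both models or between them, by mean absolute change (up to 2 called in 1 model where fewer than 2 qualified), Adipoq, Cfd, Plin1, Lrp2 and the 5 genes most like Plin4.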

Additional observations from a re-analysis of the deposited data

Results flagged for a closer look

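In Lipe, WT 5 lay far from the other WT libraries, at 108.4 CPM with the others at 57.4 to 71.3. It was the only such library among 30 groups of 4 or 5 libraries examined for the 10 members, where chance gives about 1 in 20.

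The 2 models differed by the direct test of FeO against Spns1 KO (edgeR) in 2 members, Pnpla2 at 0.87 (adjusted p = 0.00606) and Lipe at 1.22 (adjusted p = 0.0119) on the log2 scale. Of the 61 other lipid genes, 8 were called higher in FeO, or 13.1% beside 8.1% of all genes. Lower were 2, or 3.28% beside 6.76%. The lipid genes named were picked in part by this same comparison, so their calls only describe them. Among them, FeO was higher for Mogat1 by 1.66 (adjusted p = 0.00994), Agpat2 by 1.40 (adjusted p = 0.0144) and Cidec by 2.08 (adjusted p = 0.0349). FeO was also higher for Plin1 by 1.51 (adjusted p = 0.0444) and Acsl5 by 0.90 (adjusted p = 0.0161, but 0.63 and adjusted p = 0.0545 without FeO 1). It was lower for Fabp1, at -2.41 (adjusted p = 0.0116), Ppara, at -2.06 (adjusted p = 0.0103), and the proximal tubule marker Lrp2, at -1.01 (adjusted p = 0.00921). All FeO libraries lay above all Spns1 KO libraries for Pnpla2, Lipe, Mogat1, Agpat2 and Cidec and below them for Fabp1, Ppara and Lrp2. The groups overlapped for Plin1 and Acsl5. Of the 61 other lipid genes, 6 lay wholly above and 3 wholly below, beside 17.4% of all genes without overlap in either direction.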

How the results depend on the processing

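Against 23 alternatives, 2 of them (WT 1 and WT 2 summed, and Spns1 KO 4 and FeO 1 both left out) chosen after seeing the data, no called difference of a member changed sign. Members called lower in Spns1 KO went from 1 to 0 with all genes above 0 counts, with the replicate block, with WT 1 and WT 2 summed and without Spns1 KO 4 and FeO 1. Members called higher in FeO went from 3 to 1 without TMM factors and to 1 without Spns1 KO 4 and FeO 1, and those called lower from 0 to 1 (G0s2) with the length and GC trend removed. Members higher in FeO against Spns1 KO went from 2 to 1 without Spns1 KO 4 and FeO 1. The other lipid genes called higher in Spns1 KO went from 13 to 7 with the replicate block and to 24 without Spns1 KO 4 and FeO 1. The cause was not tested. With each library left out, members called higher and lower ranged from 0 to 1 and 0 to 2 in Spns1 KO, from 1 to 4 and 0 to 0 in FeO, and from 2 to 2 and 0 to 0 in FeO against Spns1 KO. The other lipid genes ranged from 6 to 22 and 3 to 4 in Spns1 KO and from 14 to 25 and 5 to 8 in FeO. Replicate numbers were shared between groups, but same-numbered libraries correlated at -0.30 to 0.26 in their deviations from group means, over 0.1 in 4 of 12 pairs, so the numbers were not taken to pair the mice. With library totals in place of TMM factors, the median log2 fold change of all genes in Spns1 KO was -0.18, against -0.05, and calls were split 1739 higher and 2086 lower, against 2307 and 1243. In FeO against Spns1 KO that split was 1465 and 751, against 1334 and 1113. Each member had at least 199 counts in each library, and intervals rest on 4 or 5 libraries a group.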
